A study of Mus musculus with 6 samples.

Results

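Cycling T cells were examined in kidney transplants of mice. These were barcodes that carried at least 1 unique molecular identifier (UMI) of the CD3 genes Cd3e, Cd3d or Cd3g, at least 1 UMI of Top2a, at least 1 UMI of Mki67, Birc5 or Cdk1, and no UMI of the macrophage gene C1qb or the B cell gene Cd79a. Barcodes entered with no fewer than 500 UMIs and 250 genes and with mitochondrial genes giving up to 50% of UMIs, and the rule found 322 cells among 36517 barcodes that passed these limits in 4 transplanted kidneys. The 6 kidneys of the whole series held 49797 such barcodes. BALB/c (I-Ad) kidneys had been transplanted into bilaterally nephrectomized male C57BL/6 (B6, I-Ab) recipients, and the grafts were taken on day 15. The age on the labels was 6 to 7 weeks. Rejecting kidneys came from recipients without further treatment. Tolerized kidneys came from recipients that were also infused intravenously, before and again after transplantation, with BALB/c splenocytes treated with ethylenecarbodiimide (ECDI-SP). The naive kidneys came from untransplanted male B6 mice aged 10 to 12 weeks. Each group had 2 kidneys, each was 1 library, and the study ran 1 kidney of each group in each of 2 experiments. The labels do not say which replicate number belongs to which experiment.

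T cells that meet donor antigen enter the cell cycle, copy their DNA in S phase and divide in M phase before they act as effector or regulatory cells. Top2a untangles DNA ahead of mitosis, Mki67 coats mitotic chromosomes, Birc5 (survivin) is part of the chromosomal passenger complex, and Cdk1 is the kinase that drives entry into mitosis. These 4 genes defined the cells, so their presence is not a finding. Transcripts of such genes are held down in resting cells by a repressor complex, DREAM, which binds the promoter element called CHR together with E2F proteins, and NF-Y binds CCAAT boxes in many promoters of the G2 and M phases.

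The promoters of the 4 genes are shown because the gate rested on their transcripts. Each is the 200 bases before the RefSeq transcription start in GRCm38.p6, written 5′ to 3′ on the strand of the gene. Capitals mark each match, on either strand, to CCAAT, to the CHR sequences TTTGAA or TTCGAA, or to the E2F-like sequence TTNNCGC. The regions are chr11:99024190-99024389 on the minus strand for Top2a, chr7:135716380-135716579 on the minus strand for Mki67, chr11:117849037-117849236 on the plus strand for Birc5 and chr10:69352913-69353112 on the minus strand for Cdk1.
Top2a: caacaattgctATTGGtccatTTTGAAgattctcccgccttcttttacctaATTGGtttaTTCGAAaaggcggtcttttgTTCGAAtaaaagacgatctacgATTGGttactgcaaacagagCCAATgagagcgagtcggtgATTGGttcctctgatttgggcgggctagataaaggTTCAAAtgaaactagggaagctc
Mki67: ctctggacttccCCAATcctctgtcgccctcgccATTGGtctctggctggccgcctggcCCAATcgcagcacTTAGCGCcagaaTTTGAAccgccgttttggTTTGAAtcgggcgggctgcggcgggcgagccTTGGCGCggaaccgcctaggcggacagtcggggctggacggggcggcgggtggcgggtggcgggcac
Birc5: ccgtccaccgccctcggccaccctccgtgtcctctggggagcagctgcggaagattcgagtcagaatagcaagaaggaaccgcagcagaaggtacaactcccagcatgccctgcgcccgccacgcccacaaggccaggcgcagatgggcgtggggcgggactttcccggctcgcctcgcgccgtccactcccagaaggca
Cdk1: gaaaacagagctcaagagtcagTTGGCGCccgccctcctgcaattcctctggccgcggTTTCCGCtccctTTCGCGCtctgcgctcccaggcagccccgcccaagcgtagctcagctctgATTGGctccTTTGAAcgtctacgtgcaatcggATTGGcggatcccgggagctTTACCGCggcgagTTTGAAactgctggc
The Top2a promoter held 5 matches to CCAAT, 2 to TTTGAA and 2 to TTCGAA, which reads the same on both strands and was counted once at each place. The Mki67 promoter held 3 matches to CCAAT, 2 to TTTGAA and 2 to TTNNCGC, and the Cdk1 promoter held 2, 2 and 4. The Birc5 window held no match to any of the 4 motifs. Among all 32851 promoters of this length, 29.3% held CCAAT, 12.5% TTTGAA, 0.992% TTCGAA and 14.5% TTNNCGC. The 39 promoters of G2 and M phase genes held CCAAT in 76.9%, TTTGAA in 38.5%, TTCGAA in 0% and TTNNCGC in 15.4%, whereas the 35 promoters of S phase genes held TTNNCGC in 57.1%, CCAAT in 71.4%, TTTGAA in 14.3% and TTCGAA in 2.86%. The 12 promoters of cytotoxic effector genes held CCAAT in 25.0%, TTNNCGC in 8.33%, TTTGAA in 16.7% and TTCGAA in 8.33%, which is 1 promoter. A match describes the sequence and is not a site of binding measured here.

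The grafts differed in depth and in the number of T cells. Values for the 4 grafts are given throughout in the order rejecting 1, rejecting 2, tolerized 1 and tolerized 2. The libraries held 56837038, 48111410, 96803926 and 94316013 UMIs, and 11739, 8079, 9819 and 6880 barcodes passed the limits. Cd3-positive barcodes numbered 6382, 3155, 2219 and 1240. Of these, 48.5%, 19.3%, 17.4% and 9.52% also carried C1qb. Once barcodes with C1qb or Cd79a were left out, 3184, 2484, 1798 and 1100 eligible Cd3-positive barcodes stayed, which is 8566 in all. The cycling T cells among them numbered 93, 105, 68 and 56. Non-cycling T cells, which carried no UMI of any of the 4 cycle genes, numbered 2679, 1986, 1365 and 875. The other 1339 eligible barcodes carried some of the 4 genes without meeting the rule, 704 of them with Top2a alone. In the naive kidneys 101 barcodes were eligible and 1 was cycling, so these kidneys were not compared.

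UMIs of CD3 genes were also found in barcodes of tubule cells, most often in rejecting kidney 1. Among tubule barcodes, which carried Lrp2 and Slc34a1 and no Ptprc, 33.9%, 7.37%, 4.62% and 4.49% held a Cd3 UMI at median depths of 4532, 5628.5, 8237 and 11733 UMIs. The 4 cycle genes met the rule in 1.62%, 2.83%, 0.775% and 0.796% of the same tubule barcodes, most often in rejecting kidney 2. Whether free RNA or joined cells gave these UMIs was not tested. Of the cycling T cells, 9 in rejecting kidney 1 and 1 in tolerized kidney 1 were themselves such tubule barcodes. No barcode sequence was shared between the cycling T cells of any pair of grafts, while 13 to 29 were shared per pair among all barcodes that passed. A score for doublets marked 16.1%, 15.2%, 25.0% and 17.9% of cycling T cells against 9.59%, 4.63%, 8.72% and 6.17% of non-cycling T cells. Their part in the results below was not tested beyond the values given without them.

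T cell genes that the rule had not used were detected in most of the cells, except Trbc1 and Cd2 in rejecting kidney 1. A UMI of the T cell receptor constant genes Trac, Trbc1 or Trbc2 was found in 296 of 322 cycling T cells (91.9%), while 17, 5, 2 and 2 cells had none. By graft the share was 81.7%, 95.2%, 97.1% and 96.4% of cycling T cells. Among the shallower non-cycling T cells it was lower, at 65.0%, 89.6%, 86.4% and 79.2%, and lowest in rejecting kidney 1. Tubule barcodes held such a UMI in 27.7%, 9.07%, 8.40% and 8.91%. The rule had used the Cd3 genes, so it is not separate evidence that 299 of the cycling T cells held at least 2 Cd3 UMIs. Trac was detected in 66.7%, 90.5%, 94.1% and 89.3% of cycling T cells, against 39.4%, 75.6%, 77.9% and 67.5% of the shallower non-cycling T cells and 7.87%, 3.29%, 4.49% and 4.89% of tubule barcodes. The kinase Lck, which signals below the receptor, was detected in 67.7%, 78.1%, 94.1% and 87.5% of cycling T cells and in 0.835% to 3.69% of tubule barcodes. Trbc1 was detected in 46.2%, 63.8%, 61.8% and 62.5% of cycling T cells, and the T cell gene Cd2 in 47.3%, 72.4%, 86.8% and 69.6%. Rejecting kidney 1 was the lowest for each of these genes among cycling T cells, and it held most of the cells without a receptor UMI. Any Trbv segment was detected in only 17, 13, 15 and 7 cells, so that the data do not bear on clones.

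Cycling T cells were deeper than non-cycling T cells in each graft. Their median UMI counts were 6153, 7170, 12872.5 and 12450.5, against 1625, 2758.5, 4744 and 5010 in non-cycling T cells. Their median gene counts were 2115, 2341, 3083 and 3106, against 801, 1213, 1673 and 1691. A deeper barcode has a higher chance to meet a rule on single UMIs, so the gate favors deep barcodes. The part of the gate in this difference in depth was not tested. Mitochondrial genes gave a median of 11.3%, 5.01%, 4.19% and 5.02% of their UMIs, highest in rejecting kidney 1.

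At the edge of the rule, 63 cycling T cells held exactly 2 UMIs of the 4 genes, and the 704 barcodes with Top2a alone lay just outside. The median number of UMIs of the 4 genes was 7, 9, 7 and 10.5, and the highest in a cell was 66, 84, 81 and 123. All 4 genes were found together in 129 cells. Mki67 was detected in 89.2%, 88.6%, 86.8% and 91.1%, Cdk1 in 49.5%, 61.0%, 52.9% and 55.4%, and Birc5 in 52.7%, 49.5%, 54.4% and 57.1%. Thus most cells carried more UMIs of these genes than the rule asked for. Since the rule chose the cells on these genes, this is not separate evidence of cycling.

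The share of T cells in cycle was compared between tolerized and rejecting kidneys. It was 2.92% (95% Wilson interval 2.39 to 3.56) and 4.23% (3.50 to 5.09) in rejecting kidneys, and 3.78% (2.99 to 4.77) and 5.09% (3.94 to 6.55) in tolerized kidneys. These intervals cover counting error only. The groups overlapped, with 3.57% ± 0.92 against 4.44% ± 0.93 (SD, n = 2), and the exact permutation test gave p = 0.667 (two-sided), and with 2 kidneys a group no p under 0.333 can arise. Between kidneys of the same replicate number the tolerized share was higher by 0.861 and by 0.864 percentage points, but whether these numbers mark the experiments is not given. The direction depended on depth. Among barcodes with at least 2000 UMIs the shares were 5.09%, 4.98%, 3.92% and 5.56%. When each barcode was thinned to 2000 UMIs, the shares were 3.73%, 3.13%, 1.77% and 2.80%, so that both rejecting kidneys lay above both tolerized kidneys (exact permutation p = 0.333). Thinning left out 1671, 515, 116 and 128 eligible barcodes that were shallower. At 1000 UMIs the shares were 1.73%, 1.57%, 0.989% and 1.69%, and the groups overlapped again. Without the barcodes marked as doublets the shares were 2.72%, 3.79%, 3.11% and 4.49%. The number of cycling T cells was 99 ± 8.49 in rejecting and 62 ± 8.49 in tolerized kidneys (SD, n = 2, exact permutation p = 0.333).

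**Figure D1:**
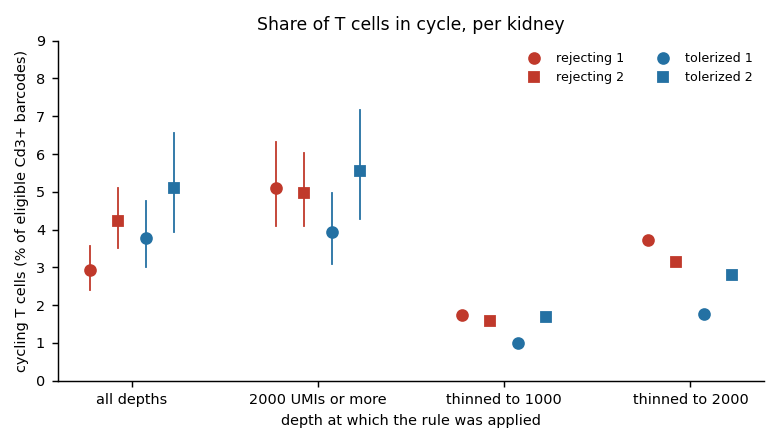
Share of eligible Cd3-positive barcodes that were cycling (y axis, %) in the 2 rejecting (red) and 2 tolerized (blue) kidneys, with the rule applied at all depths, to barcodes of at least 2000 UMIs, and after thinning to 1000 or 2000 UMIs (x axis). Bars are 95% Wilson intervals, drawn where no thinning was done. The points run from 2.92% to 5.09% at all depths, and at 2000 thinned UMIs both tolerized points lie under both rejecting points.

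The exclusion of C1qb removed an unequal part of the dividing cells. Barcodes with CD3 and the cycle genes numbered 217, 154, 93 and 61 before this step, and 120, 47, 25 and 5 of them carried C1qb. These are 55.3%, 30.5%, 26.9% and 8.20%, in the same order of kidneys as the share of C1qb among all Cd3-positive barcodes. Tubule barcodes carried C1qb in 42.6%, 13.2%, 14.0% and 7.44%. With the C1qb and Cd79a barcodes kept, the share in cycle was 4.14% ± 1.05 in rejecting and 4.56% ± 0.51 in tolerized kidneys (SD, n = 2, exact permutation p = 0.667).

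The wider cycle program, outside the 4 genes of the rule, was read in single cells with lists of 42 S phase genes and 43 genes of the G2 and M phases. Median UMIs of the S phase list were 14, 34, 36 and 40.5 per cycling T cell, against 1, 2, 4 and 3 per non-cycling T cell. Median UMIs of the G2 and M list were 21, 39, 44 and 50, against 1, 3, 4 and 4. Scaled to the same depth the S phase list took 27.5, 44.4, 25.0 and 33.5 UMIs of every 1e4 in cycling T cells and 5.18, 8.77, 6.85 and 5.21 in non-cycling T cells. The G2 and M list took 42.2, 54.7, 34.1 and 58.8 against 7.35, 10.5, 7.86 and 7.51. Both lists were thus higher in cycling T cells of each graft, also per UMI.

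At least 10 UMIs of both lists added together were held by 81.7%, 84.8%, 86.8% and 92.9% of cycling T cells. The same was true of 10.7%, 20.8%, 38.5% and 37.8% of non-cycling T cells and of 24.8%, 41.5%, 47.7% and 58.6% of the eligible barcodes that met the rule only in part. This cut is on raw UMIs, and kinds of cell and grafts differed in depth, so these shares are not at equal depth. The S phase list exceeded the G2 and M list in 31, 49, 28 and 17 cycling T cells (33.3%, 46.7%, 41.2% and 30.4%). Cells tilted to either list were therefore present in each graft, with overlap between the groups. No cell was assigned a phase.

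**Figure D2:**
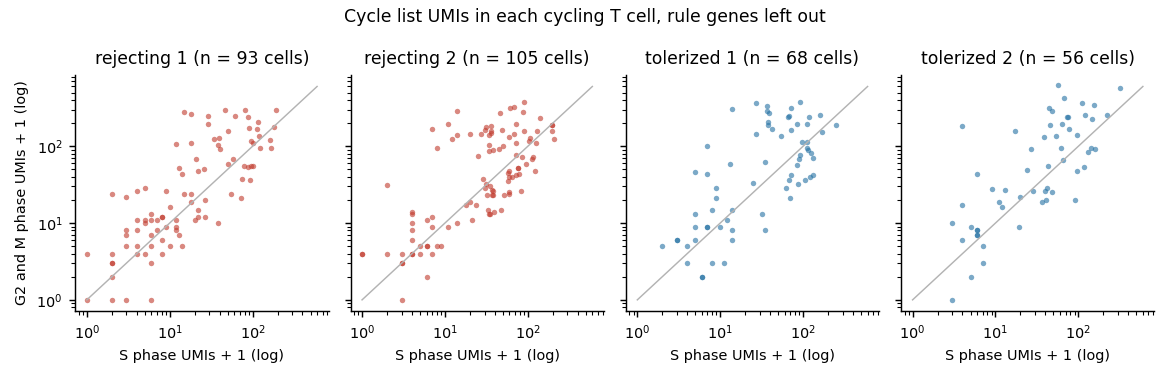
UMIs of the S phase list (x axis, log scale, plus 1) and of the G2 and M list (y axis, log scale, plus 1) in each cycling T cell, with 1 panel per kidney, the 4 rule genes left out and the gray line marking equal numbers. The cells spread on both sides of the line in each kidney, and 33.3%, 46.7%, 41.2% and 30.4% lie on the S phase side.

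UMIs were then summed over the cells of a graft and compared between cycling and non-cycling T cells as counts per 1e6 UMIs (CPM), on the log2(CPM + 1) scale. Because the cells were chosen by cycle genes, this contrast is a description without a test. Among 6517 genes with a mean of at least 20 CPM in either kind of cell, 368 (5.65%) were at least 2-fold higher in cycling T cells in all 4 grafts and 323 (4.96%) at least 2-fold lower. By any amount, 30.7% were higher and 30.7% lower in all 4. The median of all genes was -0.03. For the rule genes themselves the summed levels in cycling T cells were 744, 760, 531 and 557 CPM of Top2a and 558, 669, 428 and 383 CPM of Mki67. Birc5 stood at 340, 331, 286 and 303 CPM and Cdk1 at 199, 206, 124 and 153 CPM.

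DNA replication genes were higher in cycling T cells. Of 41 S phase genes described, 38 were at least 2-fold higher in all 4 grafts and all 41 were higher by some amount, with a median log2 difference of 2.99. Mcm6, a subunit of the helicase that unwinds DNA, stood at 161, 213, 215 and 171 CPM in cycling T cells against 22.8, 62.6, 42.4 and 32.0 CPM in non-cycling T cells. Nasp, a histone chaperone, stood at 254, 250, 221 and 192 CPM against 72.6, 77.1, 53.9 and 42.5 CPM. Outside the lists, Pclaf, which binds the replication clamp PCNA, had the largest mean log2 difference, 7.18 ± 1.17 (SD over 4 grafts). Its levels were 434, 516, 493 and 618 CPM against 7.67, 2.49, 1.93 and 0.731 CPM. Esco2, which acetylates cohesin during S phase, was the steadiest of the 8 genes named outside the lists at 5.78 ± 0.18, with 87.5, 77.1, 61.0 and 73.4 CPM against less than 1 CPM in each graft.

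Replication-dependent histone genes varied more between grafts. Hist1h2ap stood at 6471, 1607, 442 and 1291 CPM in cycling T cells against 127, 16.0, 4.21 and 3.80 CPM. Rejecting kidney 1 was the highest for both kinds of cell, with a log2 difference of 5.66 in that graft and a mean of 6.68 ± 1.01 over the 4. Hist1h1b (6.18), Hist1h2ae (5.76) and Hist1h2ab (5.64) had mean log2 differences of similar size. These genes form families of near-identical copies, and how reads that match several copies were counted was not examined, so that their levels are uncertain. The reason for the spread between grafts was not tested.

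All 41 of the G2 and M phase genes that were described and not in the rule were at least 2-fold higher in cycling T cells of all 4 grafts, with a median log2 difference of 4.38. Hmgb2, a chromatin protein, was the most abundant at 1461, 2512, 1541 and 2304 CPM against 127, 282, 171 and 170 CPM. Ccna2, the cyclin A that pairs with Cdk1 and Cdk2, stood at 125, 123, 97.2 and 119 CPM against 1.10, 0.586, 0.341 and 0 CPM. Large mean log2 differences were also found for Cenpf (6.41 ± 0.31), a kinetochore protein, Hmmr (6.38 ± 0.42), Nusap1 (6.17 ± 0.67) and Ube2c (5.97 ± 0.58), which marks cyclins for destruction. Outside the list the kinetochore scaffold Knl1 (5.44 ± 0.21) and the spindle pole protein Aspm (5.34 ± 0.21) followed.

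Regulators of the cycle did not move as 1 block. Of 20 described, 9 were at least 2-fold higher in all 4 grafts, 10 were higher by some amount and 5 were lower by some amount, with a median log2 difference of 0.77. Their summed level was lower in cycling T cells of each graft, with Btg1 as the most abundant gene. E2f1, which turns on S phase genes, stood at 25.5, 32.9, 31.0 and 22.1 CPM against 2.07, 1.90, 2.27 and 0.439 CPM. The G1 kinase Cdk4 stood at 131, 157, 134 and 152 CPM against 41.7, 61.5, 61.9 and 50.6 CPM. In contrast, the D cyclins that serve it were not higher, with a mean log2 difference of -0.40 ± 0.27 for Ccnd2 and -0.26 ± 0.26 for Ccnd3. The antiproliferative gene Btg1 was lower, at 209, 408, 425 and 346 CPM against 477, 1305, 893 and 586 CPM, and so was Cdkn1b, an inhibitor of cyclin kinases, at -0.59 ± 0.37.

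Chromatin, tubulin and biosynthesis genes were higher as well. All 16 genes of the chromatin and tubulin list were at least 2-fold higher in all 4 grafts, with a median of 2.08. Ptma (prothymosin alpha) stood at 2815, 4258, 3382 and 4062 CPM against 873, 1346, 1111 and 1052 CPM. Stmn1 (stathmin), which regulates microtubules, had a mean log2 difference of 4.35 ± 0.28. Of 18 nucleotide and one-carbon genes, 15 were higher in all 4 grafts and 7 of them at least 2-fold, with a median of 1.16. Impdh2, the rate-limiting enzyme of guanine nucleotide synthesis and a target of mycophenolate, stood at 152, 151, 114 and 160 CPM against 36.8, 54.5, 39.3 and 38.2 CPM. Of 10 glycolysis genes, 7 were higher in all 4 grafts and none 2-fold in each. Ldha, which makes lactate, stood at 554, 803, 540 and 534 CPM against 296, 307, 303 and 244 CPM. Of 86 ribosomal protein genes, 63 were higher and 2 lower, with a smaller median of 0.40.

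Genes of T cell identity and function showed smaller differences. Of 17 T cell receptor and signaling genes, 5 were higher in all 4 grafts and 2 lower, with a median of 0.23. Of all genes described, 30.7% were higher and 30.7% lower. Among 15 cytotoxic effector genes 3 were higher and 2 lower. The chemokine Ccl5, made by effector and memory CD8 T cells, was lower at 1151, 1619, 2000 and 1461 CPM against 2825, 5664, 5013 and 2727 CPM. Ifng (interferon gamma) had levels of 222, 168, 250 and 293 CPM against 159, 159, 162 and 92.4 CPM. The inhibitory receptor Pdcd1 (PD-1) stood at 248, 317, 312 and 255 CPM against 211, 529, 269 and 112 CPM, lower in rejecting kidney 2 and higher in the other grafts. Of 8 inhibitory receptor genes, 1 was lower in all 4 grafts and none was higher.

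Markers of naive and memory cells and interferon-induced genes tended to lower levels. Of 10 naive and memory genes, 5 were lower in all 4 grafts and none higher, with a median of -0.73. Il7r, the receptor for the survival cytokine IL-7, stood at 14.6, 61.7, 71.4 and 19.8 CPM against 90.8, 219, 132 and 98.7 CPM. The survival gene Bcl2 had a mean log2 difference of -1.31 ± 0.58. Of 13 interferon-induced genes, 10 were lower in all 4 grafts and none higher, with a median of -1.05. Ly6a (Sca-1) stood at 503, 481, 590 and 400 CPM against 1170, 864, 996 and 1018 CPM. Of 8 regulatory T cell genes, 3 were higher in all 4 grafts, near the 30.7% of all genes described. Among the 3 was Tnfrsf9 (4-1BB), at 105, 146, 122 and 127 CPM against 48.2, 64.3, 62.6 and 40.5 CPM. Foxp3 itself was higher in rejecting kidney 1 and tolerized kidney 1 and lower in the other grafts, with a mean of -0.01 ± 0.56. Of 8 cytokine receptor genes, 1 was higher and 3 lower, and of 11 trafficking genes 3 were lower, beside 30.7% of all genes in each direction.

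Genes of kidney tubule led the genes at least 2-fold lower in cycling T cells. The 8 largest differences outside the lists were led by Calb1 (calbindin), at 2.43, 2.06, 6.21 and 22.1 CPM against 153, 182, 127 and 398 CPM, and included Slc12a3, Atp6v1g3, Pgam2, S100g, Fst, Pvalb and Slc5a8. Of these, Calb1, S100g, Pvalb and Slc12a3 are genes of the distal convoluted tubule. Fst had no UMI in any cycling T cell. The list of 10 tubule genes summed to 7313, 1712, 5818 and 1939 CPM against 21509, 8900, 24006 and 20068 CPM, with Kap as its most abundant gene over the 4 grafts together at 4552, 876, 1657 and 548 CPM against 12361, 5301, 15029 and 8446 CPM. Of these 10 genes 7 were at least 2-fold lower in all 4 grafts. The list of 11 macrophage and monocyte genes summed to 460, 485, 126 and 294 CPM against 2597, 1047, 908 and 278 CPM, with Lyz2 as the most abundant, lower in 3 grafts and higher in tolerized kidney 2. The 8 NK cell genes summed to 164, 177, 265 and 334 CPM against 901, 546, 640 and 373 CPM, with Fcer1g as the most abundant.

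Other lists were low or uneven, and the most abundant gene of each is given over the 4 grafts together. The 8 B cell and plasma cell genes summed to 261, 228, 269 and 871 CPM against 191, 263, 167 and 216 CPM, with Ighm as the most abundant, higher in cycling T cells of each graft but rejecting kidney 2. Igkc, the kappa light chain, reached 451 CPM in tolerized kidney 2 and 25.9 to 57.6 CPM in the other grafts. The 6 granulocyte and red cell genes summed to 26.7, 16.5, 248 and 606 CPM. Hbb-bs (hemoglobin beta) gave most of this in tolerized kidney 2 (469 CPM) and the granulocyte gene S100a9 in tolerized kidney 1 (139 CPM), where Hbb-bs stood at 1.03 CPM. The 8 genes of endothelium and stroma summed to 379, 15.4, 133 and 10.5 CPM, with Emcn as the most abundant and Col1a1 and Col3a1 at 0. The 7 dendritic cell genes summed to 14.6, 21.6, 4.14 and 16.3 CPM, with Batf3 as the most abundant and Siglech at 0. The 6 gamma-delta T cell genes summed to 13.4, 52.5, 59.0 and 121 CPM, with Tcrg-C2 as the most abundant and Trdv4 at 0.

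The lower genes depended on which barcodes counted as T cells. When a T cell receptor UMI was required on both sides, 342 of 6210 genes (5.51%) were at least 2-fold higher in all 4 grafts, 323 of them shared with the rule as given, while 79 (1.27%) were at least 2-fold lower, 59 of them shared. By any amount, 29.8% were higher and 29.5% lower in all 4. Of the S phase list 37 of 41 genes, and of the G2 and M list 40 of 40, were still at least 2-fold higher. Of the 10 tubule genes 4 were at least 2-fold lower in all 4 grafts, against 7 with the rule as given, and 7 were lower by any amount. The counts that follow are also by any amount in all 4 grafts. Of 12 interferon-induced genes 7 were lower (median -0.85), and of 10 naive and memory genes 6 were lower. Of 11 trafficking genes 8 were lower (median -0.69), and of 8 cytokine receptor genes 5 were lower and none higher. Of 16 cytotoxic genes 4 were lower, and of 8 inhibitory receptor genes 3. Of 8 regulatory T cell genes 2 were higher, and the median turned from 0.32 to -0.08. Of 86 ribosomal protein genes 38 were higher and 3 lower, with a median of 0.17. The T cell receptor and signaling list holds genes that this gate selects on, so it is not counted here. Pdcd1 turned lower in 3 grafts, at 289, 324, 315 and 275 CPM against 345, 637, 355 and 179 CPM. Among other single genes, Il7r stood at 12.8, 63.8, 72.2 and 20.1 CPM against 142, 258, 170 and 157 CPM. Ccl5 stood at 1313, 1663, 2025 and 1572 CPM against 4434, 6781, 6516 and 4349 CPM, and Bcl2 at 72.6, 94.6, 127 and 123 CPM against 344, 360, 383 and 253 CPM.

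**Figure D3:**
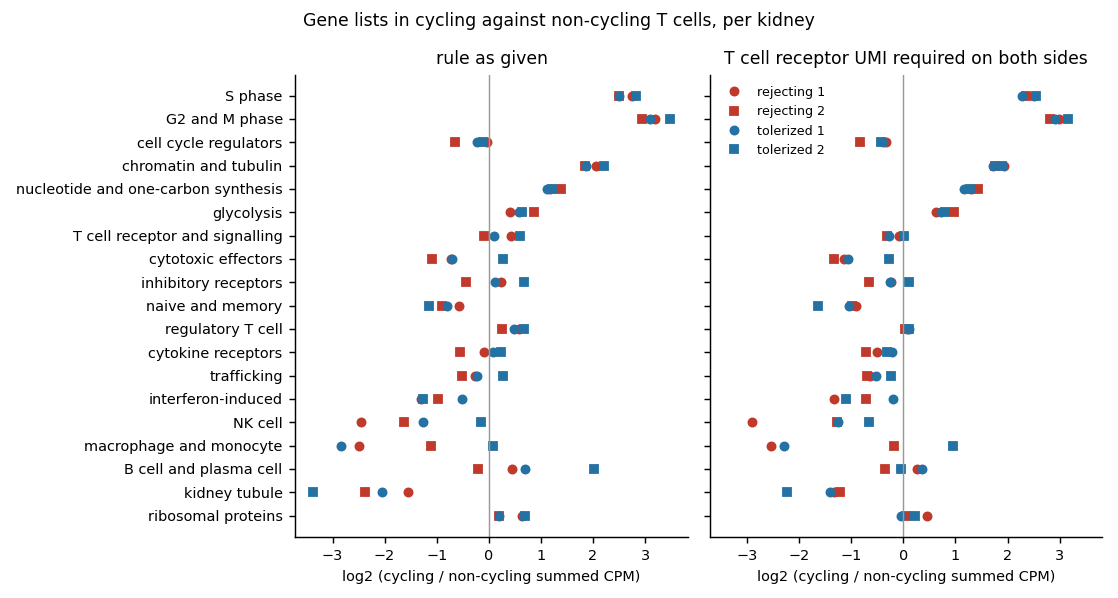
Ratio of the summed level of each gene list in cycling T cells to that in non-cycling T cells (x axis, log2 of the ratio of summed CPM) for the lists named on the y axis, with 1 point per kidney. The left panel uses the rule as given and the right panel requires a T cell receptor UMI on both sides. The S phase, G2 and M phase, and chromatin and tubulin lists lie to the right of 0 in each kidney, and the tubule list lies to the left. The summed cell cycle regulators lie to the left as well, although 10 of 20 of these genes were higher in all 4 grafts and 5 lower in either panel. The receptor and signaling list holds genes that the gate of the right panel selects on, so its points there follow in part from that gate.

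Lineages were read from Cd8a, Cd8b1, Cd4 and Foxp3, which the rule had not used. CD8 T cells see antigen on MHC class I and kill target cells, whereas CD4 T cells see MHC class II and include Foxp3-positive regulatory T cells. Among cycling T cells, 60.2%, 61.0%, 58.8% and 57.1% were Cd8-positive and Cd4-negative (56, 64, 40 and 32 cells). The mean was 60.6% ± 0.52 in rejecting and 58.0% ± 1.19 in tolerized kidneys (SD, n = 2, exact permutation p = 0.333). Cd4-positive, Cd8-negative cells made up 15.1%, 14.3%, 22.1% and 23.2% (14, 15, 15 and 13 cells), with 14.7% ± 0.54 in rejecting and 22.6% ± 0.82 in tolerized kidneys (exact permutation p = 0.333, n = 2). The groups did not overlap for either lineage, but 0.333 is the smallest p this design can give. The Cd8 difference turned direction in some settings and grew in others, as given below for the processing. Neither lineage was detected in 21, 21, 6 and 10 cells.

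The CD4 difference moved with depth and with the cycle gate. When at least 2 of Mki67, Birc5 and Cdk1 were required, Cd4-positive, Cd8-negative cells made up 16.0%, 13.1%, 16.7% and 14.3% of cycling T cells, with overlap between the groups (exact permutation p = 0.667, n = 2). Non-cycling T cells were Cd4-positive and Cd8-negative in 5.82%, 8.86%, 11.3% and 14.2% and Cd8-positive and Cd4-negative in 46.6%, 63.4%, 57.3% and 37.5%. When cycling T cells already chosen were thinned to 2000 UMIs, Cd4-positive, Cd8-negative cells made up 9.69%, 7.98%, 10.7% and 9.52%, and the groups overlapped. Non-cycling T cells at that depth held 5.29%, 6.01%, 7.25% and 8.25%, below the cycling T cells of the same graft in each case. At 1000 UMIs rejecting kidney 2 turned to 4.13% in cycling against 4.88% in non-cycling T cells. With the rule applied after thinning to 2000 UMIs the cycling T cells of both tolerized kidneys lay below the non-cycling T cells, at 7.31% and 8.44% against 8.03% and 9.88%, so that no common direction was seen. The tubule barcodes carried Cd4 in 0.393%, 0.340%, 0.129% and 0.119% and Cd8 in 11.2%, 2.72%, 2.55% and 1.63%. The Cd4 shares of cycling T cells therefore lay above those of tubule barcodes in each graft, at the depths given above. At 2000 UMIs the Cd8-positive, Cd4-negative share was 51.0%, 56.3%, 55.4% and 52.5% among cycling and 35.1%, 66.9%, 55.2% and 34.9% among non-cycling T cells. Cycling T cells chosen before thinning were thus nearly even in this share, while non-cycling T cells spread widely. With the rule applied after thinning to 2000 UMIs, the cycling share was 60.1% ± 0.88 in rejecting and 61.8% ± 7.04 in tolerized kidneys (SD, n = 2). At 1000 UMIs it was 51.8% ± 1.41 and 54.1% ± 13.2, so that the tolerized kidneys were then not even.

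Foxp3 was detected in 8, 9, 17 and 5 cycling T cells (8.602%, 8.57%, 25.0% and 8.93%). The mean was 8.59% ± 0.02 in rejecting and 17.0% ± 11.4 in tolerized kidneys (SD, n = 2, exact permutation p = 0.333). Tolerized kidney 1 alone carried this difference of 8.38 percentage points, since without it the difference was 0.342. Among non-cycling T cells, Foxp3 was detected in 2.58%, 5.69%, 13.6% and 10.6%. At 2000 thinned UMIs the shares were 4.13%, 2.77%, 11.8% and 5.98% in cycling and 3.46%, 3.64%, 9.36% and 6.74% in non-cycling T cells, so that cycling cells did not stand apart from non-cycling cells of the same graft in a common direction. Tubule barcodes carried Foxp3 in 0.0398% to 0.454%.

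Seen from the other side, the share in cycle was 3.70%, 3.99%, 3.81% and 7.27% of Cd8-positive, Cd4-negative cells and 6.93%, 6.41%, 6.70% and 7.51% of Cd4-positive, Cd8-negative cells. It was 8.16%, 6.29%, 6.44% and 4% of Foxp3-positive cells. The groups overlapped in each of these, and the exact permutation test gave p = 0.667 for each (n = 2). Among barcodes with at least 2000 UMIs, the share in cycle was 10.7%, 8.88%, 6.94% and 7.88% of Cd4-positive, Cd8-negative cells. It was 9.76%, 8.16%, 6.83% and 4.17% of Foxp3-positive cells. Both rejecting kidneys then lay above both tolerized kidneys in either share, and after thinning to 2000 UMIs this held for the Cd4-positive cells (4.75%, 2.96%, 1.57% and 2.37%). It held for the Cd4-positive cells as well when at least 2 of Mki67, Birc5 and Cdk1 were required (means of 3.69% and 2.78%). In other settings the tolerized kidneys lay above for the Cd4-positive cells, with 6.67% against 7.54% (means of rejecting and tolerized kidneys) at no more than 20% mitochondrial UMIs and 6.17% against 7.89% with C1qb and Cd79a barcodes kept. The exact permutation test gave p = 0.333 for each of these (n = 2), the smallest p possible, and the direction thus turned with the setting for the Cd4-positive cells. The mean share of Foxp3-positive cells in cycle was lower in tolerized kidneys by 2.01 percentage points under the rule as given and by 0.438 to 3.46 in the 10 other settings with a value in each graft. The groups did not overlap in 4 of these, namely at least 1000 UMIs, at least 2000 UMIs, at least 2 Cd3 UMIs and at least 2 of Mki67, Birc5 and Cdk1 (exact permutation p = 0.333 for each, n = 2).

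**Figure D4:**
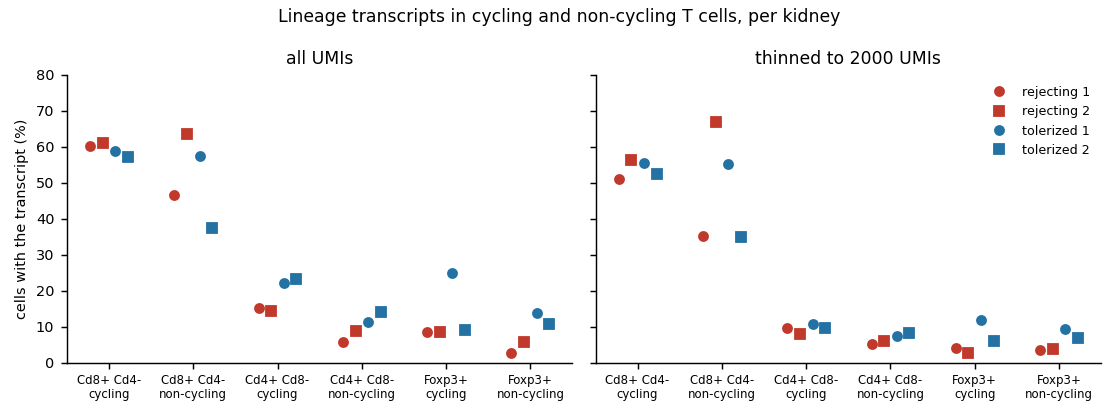
Share of cells with each lineage transcript (y axis, %) among cycling and non-cycling T cells (x axis), with 1 point per kidney, at all UMIs (left) and after thinning to 2000 UMIs (right). Cd4-positive cells among cycling T cells lie at 14.3% to 23.2% on the left and at 7.98% to 10.7% on the right, and Foxp3 is highest in tolerized kidney 1.

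Gene expression of cycling T cells was then compared between tolerized and rejecting kidneys with the quasi-likelihood test of edgeR on UMIs summed per kidney (822492, 972298, 966870 and 858025 UMIs). Of 7670 genes tested, 0 (0%) passed a false discovery rate of 0.05, and 217 (2.83%) had an unadjusted p under 0.05. With the replicate number as a block edgeR called 71 genes, 44 of them higher under tolerance and 27 lower, among them Cdkn1a, Gstp1, Ckb, Rpl41, Hcst, Fcer1g, Polr2l and Ptn, and the labels do not say whether these numbers mark the experiments. DESeq2 called 2 genes, Rpl41 higher and the macrophage gene Chil3 lower in tolerized kidneys. The values of the 2 groups did not overlap for 15.9% of genes in the higher and 15.2% in the lower direction. Fold changes below are log2 values of tolerized against rejecting kidneys with standard errors, those under the rule as given all with an adjusted p of 1.00 from edgeR without the block, and the levels are CPM.

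The genes with the smallest unadjusted p whose groups did not overlap are named although they did not pass. Cdkn1a, which encodes the cyclin kinase inhibitor p21 (GRCm38 chr17, 29090976 to 29100727), stood at 120, 84.3, 30.0 and 28.0 CPM (log2 fold change -1.73, SE 0.301, unadjusted p = 0.0005, edgeR). Both rejecting kidneys were above both tolerized kidneys. The same order was seen in non-cycling T cells, with 59.3, 67.8, 32.5 and 18.1 CPM. When a T cell receptor UMI was required, Cdkn1a in cycling T cells stood at 79.7, 56.4, 30.4 and 30.1 CPM (-1.10), and with at least 2 Cd3 UMIs the fold change was -0.49. Gstp1, a glutathione transferase, stood at 114, 111, 35.2 and 40.8 CPM (-1.48, SE 0.264), and in non-cycling T cells at 128, 127, 30.1 and 42.5 CPM. Ckb, the brain creatine kinase, stood at 65.7, 55.5, 15.5 and 16.3 CPM (-1.84, SE 0.334). Its non-cycling levels of 140, 61.5, 101 and 92.8 CPM overlapped between the groups. With a receptor UMI required the Ckb fold change was -1.01, and rejecting kidney 1 then stood at 17.1 CPM against 15.7 CPM in tolerized kidney 1. With at least 2 Cd3 UMIs it was -0.98. Prkca, a protein kinase C, stood at 182, 184, 96.2 and 83.9 CPM (-0.94, SE 0.235; -0.53 with C1qb and Cd79a barcodes kept), and Cebpg, a bZIP transcription factor, at 70.5, 72.0, 33.1 and 30.3 CPM (-1.08, SE 0.272).

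In the higher direction, Rpl41, a ribosomal protein of the large subunit, stood at 2312, 2738, 5848 and 5707 CPM (1.28, SE 0.234). The non-cycling T cells showed the same order at 1092, 1606, 3558 and 2694 CPM. Hcst, which encodes the adaptor DAP10 of the receptor NKG2D, stood at 126, 163, 302 and 322 CPM (1.19, SE 0.251). Fcer1g, an adaptor of Fc and NK receptors that myeloid cells also express, stood at 87.5, 80.2, 183 and 193 CPM (1.25, SE 0.245). The study had reported it as higher in T cells of tolerized kidneys. With a receptor UMI required, its non-cycling levels of 398, 231, 431 and 279 CPM overlapped between the groups. With C1qb and Cd79a barcodes kept, the Fcer1g difference turned to -1.28 (unadjusted p = 0.0075, edgeR). Polr2l, a subunit shared by RNA polymerases, stood at 24.3, 25.7, 71.4 and 52.5 CPM (1.38, SE 0.306). Ptn (pleiotrophin) had 0, 0, 21 and 12 UMIs, and no fold is given against kidneys at 0.

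Among genes that the study had named for T cells, Il21r, the receptor for the helper cytokine IL-21, stood at 120, 133, 59.99 and 71.1 CPM (-0.86, SE 0.256, unadjusted p = 0.0104, edgeR). Both rejecting kidneys were above both tolerized kidneys, in cycling and in non-cycling T cells (120, 171, 56.9 and 35.1 CPM in the latter). Tnfaip3 (A20), an inhibitor of NF-kB signaling, stood at 77.8, 186, 59.99 and 72.3 CPM (-0.91, SE 0.434). Without rejecting kidney 1 the Tnfaip3 fold change was -1.41 and without rejecting kidney 2 it was -0.15. Tnf stood at 19.5, 18.5, 16.6 and 15.2 CPM (-0.18, SE 0.40). Gzmb (granzyme B; GRCm38 chr14, 56258838 to 56262260) stood at 106, 358, 384 and 202 CPM (0.40, SE 0.66), with overlap between the groups.

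**Figure D5:**
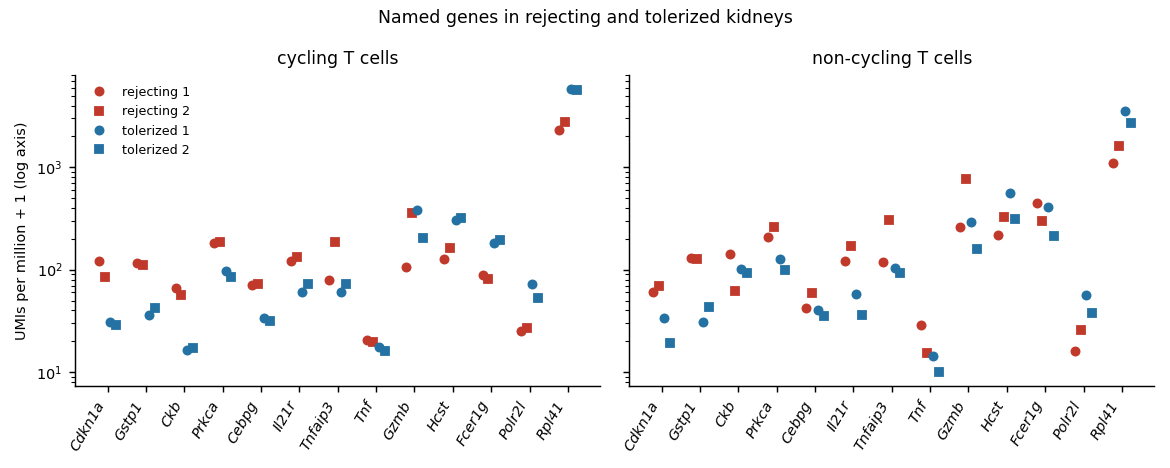
Levels of 13 named genes (x axis) in CPM plus 1 (y axis, log scale) in cycling (left) and non-cycling (right) T cells, with 1 point per kidney, rejecting in red and tolerized in blue. In cycling T cells the points of Cdkn1a and Gstp1 lie higher in rejecting kidneys and those of Rpl41 and Hcst in tolerized kidneys, and none of these genes passed the adjusted edgeR test of the rule as given without the replicate block.

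Gzmb differed in how cycling and non-cycling T cells compared. In rejecting kidneys cycling T cells had less Gzmb than non-cycling T cells, 106 against 261 CPM and 358 against 775 CPM. In tolerized kidneys they had more, 384 against 292 CPM and 202 against 157 CPM. The test of this difference within kidneys gave a log2 of 1.52 (SE 0.268, unadjusted p = 0.000145, adjusted p = 1.00, edgeR over 12270 genes), and 0 genes passed (346 had an unadjusted p under 0.05, and DESeq2 called 0). It passed an adjusted p of 0.05 in 4 of 11 alternatives, among them that without doublets (adjusted p = 0.0183, edgeR), and the lowest adjusted p over these was 0.00141 and the highest 1.00. When a T cell receptor UMI was required, levels were 121, 363, 388 and 217 CPM in cycling and 406, 932, 385 and 249 CPM in non-cycling T cells. The log2 differences between them were then -1.74, -1.36, 0.01 and -0.20.

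The lists were described by counts beside the background of 15.9% and 15.2%. Of 88 ribosomal protein genes, 77 were higher in tolerized kidneys, 35 with groups that did not overlap and none in the other direction, with a median log2 of 0.22. Rps27 and Rps21, of the small subunit, had fold changes of 0.93 (SE 0.239) and 0.84 (SE 0.223). Non-cycling T cells had a median of 0.20 for the same list, with 27 of 92 genes higher without overlap and 2 lower, beside 15.1% and 15.4% of all 12757 genes. The median over all 7670 genes was 0.003.

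Of 17 cytotoxic effector genes, 15 were higher in tolerized kidneys, 7 without overlap, and 1 was lower without overlap, with a median of 0.51 against -0.14 in non-cycling T cells. Examples are Nkg7, a protein of cytotoxic granules (0.51, SE 0.257), Ifng (0.56, SE 0.266) and Klrd1, the CD94 receptor (0.62, SE 0.240). None of these passed, with unadjusted p-values of 0.0848, 0.0684 and 0.0342 (edgeR). Of 10 naive and memory genes, 8 were lower in tolerized kidneys, 6 without overlap, with a median of -0.54 against 0.02 in non-cycling T cells. Tcf7, the factor of naive and stem-like T cells, stood at 37.7, 58.6, 18.6 and 18.6 CPM (-1.29, SE 0.370). Satb1, a chromatin organizer, stood at 15.8, 25.7, 3.10 and 3.50 CPM (-2.53, SE 0.654). Bcl2 was the gene of this list that went the other way without overlap (0.69, SE 0.251).

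Of 8 regulatory T cell genes, 7 were higher in tolerized kidneys and 3 without overlap, with a median of 0.47, and Foxp3 stood at 24.3, 16.5, 57.9 and 17.5 CPM with overlap. Of 42 S phase genes 36 were lower, 11 without overlap and 1 higher without overlap, with a median of -0.21. The 41 genes of the G2 and M phases were split, with 19 higher and 22 lower and a median of -0.02. Of 5 macrophage and monocyte genes tested, all 5 were lower in tolerized kidneys, 4 without overlap, with a median of -1.10, and in non-cycling T cells the median of this list was -1.72. The part of macrophage RNA in the other differences was not tested. Of 3 NK cell genes 2 were higher without overlap. Of 11 interferon-induced genes 7 were higher and 4 lower, with a median of 0.05.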

How the data were processed

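Droplet libraries (10x Genomics), 1 per kidney, covered naive, rejecting and tolerized mice with 2 kidneys a group. The authors deposited raw UMI counts per gene and barcode, aligned to mm10 per the submitters' processing notes, and the file headers of the grafts name Cell Ranger 3.0.1. Nothing had been normalized, and the study's own filters and cell names were not used here. Groups were taken from the labels.

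The members were found by the rule given in the opening. The members, the gene lists and the tests were chosen with earlier results of these data known. The labels do not tie p-values to more than the spread between 2 kidneys a group. Doublets were scored per kidney by Scrublet in scanpy 1.11.5 and a kidney's top-scoring barcodes were marked as doublets, at 0.8% for each 1000 barcodes. To compare shares at 1 depth, barcodes were thinned at random to 1000 or 2000 UMIs, 100 times, and shallower barcodes were left out. Intervals are 95% Wilson intervals.

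Counts were summed per kidney and kind of cell, passed through filterByExpr, scaled with TMM factors and fitted by edgeR 4.0.16 in R 4.3.3 (robust quasi-likelihood test), with Benjamini-Hochberg adjustment over all genes and a threshold of 0.05. The test of the difference between kinds of cell had the kidney as a covariate. DESeq2 1.42.0 was an alternative, and limma 3.58.1 was loaded by edgeR. CPM values printed are relative to all UMIs of the summed cells, and log2 differences between kinds of cell used a pseudocount of 1 CPM. Tests were checked on simulated data with 200 changed genes. At a log2 change of 2, 49% were recovered in cycling and 67% in non-cycling T cells. At a log2 change of 1, 3% and 6% were recovered, so that most changes of this smaller size would be missed. False calls numbered 6 and 19, a larger part of all calls in this simulation than the threshold of 0.05 allows. Named genes were the 5 per direction with the largest fold change past the threshold and without overlap, filled by smallest unadjusted p, plus up to 3 abundant members of each list, the 8 largest differences per direction between kinds of cell, and Gzmb, Il21r, Tnf, Tnfaip3 and Fcer1g. Further members of the lists were named after their values were seen, and a few genes are not reported here. Promoters came from RefSeq (GRCm38.p6) and gene positions from GENCODE M21. Other alternatives were stricter or looser gates, no low-count filter, DESeq2 size factors, a replicate block and leaving out each kidney. Scripts ran in Python 3.11.15 with pandas 2.3.3, numpy 2.4.6, matplotlib 3.10.9 and scipy 1.17.1.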

Additional observations from a re-analysis of the deposited data

Results flagged for a closer look

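In 7 of 103 named genes, cycling T cells lay on one side of non-cycling T cells in both rejecting kidneys and on the other side in both tolerized kidneys. Of all 6510 genes described outside the rule, which had a mean of at least 20 CPM in either kind of cell, 276 (4.24%) did so. Some named genes, Ptn among them, lay below that level, so the 2 shares are of unlike sets. The values below are the tolerized minus the rejecting mean of the log2(CPM + 1) differences between cycling and non-cycling T cells, and none of the 7 passed the edgeR test of that difference under the rule as given (adjusted p = 1.00 for each). In 11 edgeR and DESeq2 alternatives Gzmb passed in 4, and Igkc and Tcrg-C2 passed in 2 each, those without the low-count filter (adjusted p = 2.06e-09 and 0.0112, edgeR) and without tolerized kidney 1 (2.33e-17 and 0.00108). The other 4 genes passed in none of theirs. Gzmb (granzyme B) had a value of 1.58, from -1.30 and -1.11 in the rejecting pair and 0.39 and 0.36 in the tolerized pair. Across 11 alternatives its fitted difference ran from 1.37 to 1.61. Tcrg-C2, a constant gene of the gamma-delta receptor, had 1.74, with -0.73 and -0.54 under rejection against 0.74 and 1.47 under tolerance. Ptn (pleiotrophin) had 3.45, which the pseudocount of 1 CPM sets, since the cycling T cells of both rejecting kidneys had 0 UMIs, and it is neither a fold nor a bound. Igkc had 2.25, of which tolerized kidney 2 gave the larger part with a difference of 2.66 against 0.44 in tolerized kidney 1. Its fitted difference of 2.47 fell to 0.95 without doublets, 1.03 with at least 2 Cd3 UMIs and 1.04 without tolerized kidney 2. Il21r had 0.72 and Itga4, an integrin chain, had 0.34, and the difference in 1 rejecting kidney was near 0 for Il21r (-0.0013). Cebpg went the other way with -0.75, with 0.77 and 0.30 under rejection against -0.25 and -0.18 under tolerance. When a T cell receptor UMI was required, Gzmb (-1.74, -1.36, 0.01 and -0.20) and Itga4 (-0.50, -0.65, -0.27 and -0.41) no longer lay on opposite sides in the groups. The same was true of Il21r (-0.31 in tolerized kidney 1) and Ptn (0 in rejecting kidney 2). The Gzmb values of both rejecting kidneys stayed below those of both tolerized kidneys. Tcrg-C2 (-1.12, -0.76, 0.37 and 0.92), Igkc (-0.94, -0.67, 0.11 and 0.33) and Cebpg (0.60, 0.26, -0.40 and -0.24) still lay on opposite sides.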

How the results depend on the processing

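With 2 kidneys a group, no exact test could pass a threshold of 0.05, and the number of genes called between tolerized and rejecting kidneys was unstable. In cycling T cells edgeR called 0 of 7670 genes, DESeq2 called 2 (Rpl41 and Chil3), and edgeR without the low-count filter called 39. Leaving out each kidney in turn gave 3 to 37, with 12 without rejecting kidney 1, 37 without rejecting kidney 2, 3 without tolerized kidney 1 and 4 without tolerized kidney 2, where the lone kidney was assumed to vary like the other group. Named after their values were seen, the 3 were Egf, Hbb-bs and Hba-a2, and the 4 were S100a9, Fxyd4, Hsd11b2 and Aqp2. In non-cycling T cells edgeR called 0 of 12757 genes (465 had an unadjusted p under 0.05), DESeq2 26 and no filter 202, and leaving out a kidney gave 0 to 108, with 5 without rejecting kidney 2, 108 without tolerized kidney 1 and 26 without tolerized kidney 2. Among the 5 were Hist2h2aa1, Ccl8, Nme2 and Hist1h2ap. For the difference between kinds of cell edgeR called 0 of 12270 genes, 57 with no filter, 3 without doublets (Gzmb, Fcer1g and Ckb), 6 with at least 2 Cd3 UMIs, and 0 to 218 when a kidney was left out (218 without tolerized kidney 1 and 21 without tolerized kidney 2).

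The study ran 1 kidney of each group in each of 2 experiments, but the labels do not tie the replicate numbers to these, so the numbers were not taken as pairs. A replicate block raised the calls in cycling T cells to 71 (44 higher and 27 lower), and the deviations of same-numbered kidneys correlated at 0.34 across genes. In non-cycling T cells the correlation was -0.25, the block called 0 genes, and the crossed replicate block, added after seeing the data, called 1 (Cyp2d12).

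The share in cycle, 0.862 percentage points higher in tolerized kidneys, turned to -0.312 at 1000 and -1.15 at 2000 thinned UMIs. The Cd8-positive, Cd4-negative share, -2.60, turned to 2.27 and 1.66 at these depths and to 3.62 when at least 2 of Mki67, Birc5 and Cdk1 were required. It grew to -6.54 with a receptor UMI required and to -5.38 without doublets. With at least 2 Cd3 UMIs it was -5.37, and at no more than 20% mitochondrial UMIs -4.95. The Cd4-positive share, 7.97, turned to -0.576 at 1000 UMIs and grew to 13.4 with C1qb and Cd79a barcodes kept. Leaving out each kidney gave 0.208 to 1.52 for the share in cycle, -3.44 to -1.76 for the Cd8 share, 7.39 to 8.54 for the Cd4 share, 0.342 to 16.4 for the Foxp3 share and -43 to -31 for the number of cycling T cells. The 691 genes at least 2-fold apart between cycling and non-cycling T cells became 1057 with no minimum level, 430 with at least 2 Cd3 UMIs and 421 with a receptor UMI (added after seeing the data), and the 323 lower genes became 575, 80 and 79. Of 194 values of 14 named genes, 4 changed direction: Fcer1g (-1.28 with C1qb and Cd79a barcodes kept), Gzmb (-0.23 without rejecting kidney 1 and -0.06 without tolerized kidney 1, in a range up to 1.54 when a kidney was left out) and Tnf (0.036 at no more than 20% mitochondrial UMIs). The causes were not tested. A gate that left out every marker of other cells kept 2, 36, 1 and 1 cycling T cells and could not be fitted.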

Other observations

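Of the 1038 barcodes in the grafts that met the rule on the 4 cycle genes, whatever their type, 525 carried a Cd3 UMI. Among barcodes with at least 2 UMIs of C1qb and 1 of C1qa or C1qc, which are macrophage genes, the cycle genes met the rule in 4.80%, 9.34%, 4.86% and 5.25%, in the order of kidneys used above, at median depths of 6440, 8754.5, 14958 and 12372.5 UMIs. The share was highest in rejecting kidney 2, and no test was made. In naive kidneys the 1 cycling T cell held 5098 UMIs and 13 UMIs of the 4 cycle genes.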
